A study of Mus musculus with 8 samples.

Results

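The genes that encode the peptide hormones of the pancreatic islet were followed in whole mouse pancreas: Ins1 and Ins2 (the insulins), Iapp (amylin), Gcg (glucagon), Sst (somatostatin), Ppy (pancreatic polypeptide) and Pyy (peptide YY). They were chosen by name, and each of the 7 names had 1 entry among the 36432 gene IDs of the tables. All 7 had a mean high enough to be tested, with 11832 genes tested in all. The data are poly(A) RNA sequencing of 8 pancreases from mice of mixed strain aged 6 to 8 weeks, 4 controls and 4 labelled as Gata6-deleted. Every mouse, control or not, carried Cre recombinase knocked in at 1 allele of Ptf1a, and the second group also had both Gata6 alleles floxed (lox/lox). Ptf1a is active in pancreatic progenitors and acinar cells, so the controls too had 1 altered Ptf1a allele. The question put by this design is what the loss of Gata6, which encodes a DNA-binding protein of the GATA family, does to gene expression in the grown organ.

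An islet is a small cluster of endocrine cells set in the enzyme-secreting acinar tissue. Beta cells make insulin together with amylin, alpha cells glucagon, delta cells somatostatin, and PP cells pancreatic polypeptide, while peptide YY is made at low levels by several islet cell types. Insulin lowers and glucagon raises blood glucose, and somatostatin released inside the islet restrains the secretion of both. Each hormone is cut from a larger precursor by prohormone convertases and stored in dense granules.

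Levels are given as rescaled FPKM, that is, FPKM (fragments scaled by transcript length and library) as deposited, divided by 100000 to bring them near the usual size. They are per length, which is meant to let levels of different genes be set side by side, but the lengths used are not given. Below, the second group goes by labelled libraries 1 to 4, because Gata6 did not check its label. Gata6 was at 2.76, 2.12, 2.62 and 2.45 in controls 1 to 4 and at 4.81, 5.12, 4.90 and 4.12 in labelled libraries 1 to 4 (log2 fold change 0.72, limma adjusted p = 0.0442). Leaving out 1 library at a time gave 0.67 to 0.77 with adjusted p from 0.0299 to 0.180, and of these fits the one without labelled library 4 kept the call. It was also lost with the title as a covariate (adjusted p = 0.198), with either other pseudocount (0.0578 and 0.0601), without a minimum or a trend (0.0797 and 0.0663) and under each of 5 other scalings (0.0548 to 0.896), always with a log2 fold change above 0. Gata6 was thus higher in value in the libraries labelled as deleted, and a level for the whole gene does not show whether a floxed exon is missing. Fragment numbers implied by the deposited intervals summed to between 4811659 and 7420240 per library.

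The libraries also fell into 2 kinds of title. Control 1 and labelled libraries 1, 3 and 4 have titles that start with BKD, and controls 2 to 4 and labelled library 2 have titles that start with ASK or BSH. The Y-linked Eif2s3y was at 5.34 to 13.7 in the BKD libraries and at 0 to 0.281 in the others, and Xist, expressed in females, was at 17.3 to 32.0 in the ASK and BSH libraries and at no more than 0.0093 in the BKD libraries. Title and sex therefore cannot be told apart here, and the hormone results below are also given within the titles.

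The DNA just before the start of the gene is shown for 1 hormone each of delta, alpha and beta cells, Sst, Gcg and Ins1, since the ratios between these cell types carry the results. Each is the 250 bases before the start of the gene, on the gene's own strand, from RefSeq on GRCm38.p6 (Sst chr16:23890845-23891094, minus strand; Gcg chr2:62483654-62483903, minus strand; Ins1 chr19:52264047-52264296, plus strand). Capitals mark every match, on either strand, to TAATG or TAATT (cores bound by homeodomain factors), CANNTG (the E box), GATAA (a core bound by GATA factors) or TGACG (the core of the cAMP response element).
Sst: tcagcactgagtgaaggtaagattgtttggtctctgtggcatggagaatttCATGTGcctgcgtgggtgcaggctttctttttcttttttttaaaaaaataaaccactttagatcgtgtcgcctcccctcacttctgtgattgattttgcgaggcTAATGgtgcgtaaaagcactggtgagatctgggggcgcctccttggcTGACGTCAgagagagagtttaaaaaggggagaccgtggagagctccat
Gcg: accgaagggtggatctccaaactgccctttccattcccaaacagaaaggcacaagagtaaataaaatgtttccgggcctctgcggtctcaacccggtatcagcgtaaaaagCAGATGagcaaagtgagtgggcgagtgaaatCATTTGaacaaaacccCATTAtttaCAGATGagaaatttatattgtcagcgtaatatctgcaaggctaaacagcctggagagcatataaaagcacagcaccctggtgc
Ins1: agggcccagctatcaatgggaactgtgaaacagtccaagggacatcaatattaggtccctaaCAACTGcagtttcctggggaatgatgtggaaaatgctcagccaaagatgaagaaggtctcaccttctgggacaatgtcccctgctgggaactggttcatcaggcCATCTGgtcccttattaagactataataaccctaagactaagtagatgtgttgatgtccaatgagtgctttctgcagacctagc
The Sst region held TGACG at -48 to -44 and, overlapping it on the other strand, at -45 to -41, counted from the start. No other hormone region of the 6 in the RefSeq table held TGACG, which is found in 17.8% of the 32851 promoter regions of that length. A single TAATG was found in Sst at -95 to -91 and, on the other strand, in Gcg at -92 to -88, and TAATG is in 23.9% of all regions. The Ins1 region had 2 E boxes, at -188 to -183 and -84 to -79, a motif present in 66.2% of regions. GATAA was in 0 of the 6 regions and in 22.6% of all. These matches are descriptions of letters in this window, and Ins2 was not in the table.

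In the controls Ins2 was the most abundant hormone transcript, followed by Gcg and Ins1, then Iapp, Sst, Pyy and Ppy. The ranges over the 4 controls were 445 to 1169 for Ins2, 38.3 to 120 for Gcg, 39.0 to 88.0 for Ins1, 24.1 to 65.4 for Iapp, 5.86 to 15.1 for Sst, 1.58 to 4.41 for Pyy and 0.821 to 3.46 for Ppy. Gcg and Ins1 overlapped, as did Ins1 and Iapp and also Pyy and Ppy, whereas Ins2, Sst and the Pyy and Ppy pair each stood apart from the neighbours in this order. Of the summed level of the 7 hormones Ins2 made up 79.1% to 80.1% in the controls, against 73.6% to 79.6% in the labelled libraries. The implied fragments of the controls were closer, at 489 to 935 for Ins2 and 389 to 655 for Ins1. The size of the Ins2 share is therefore uncertain.

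**Figure D1:**
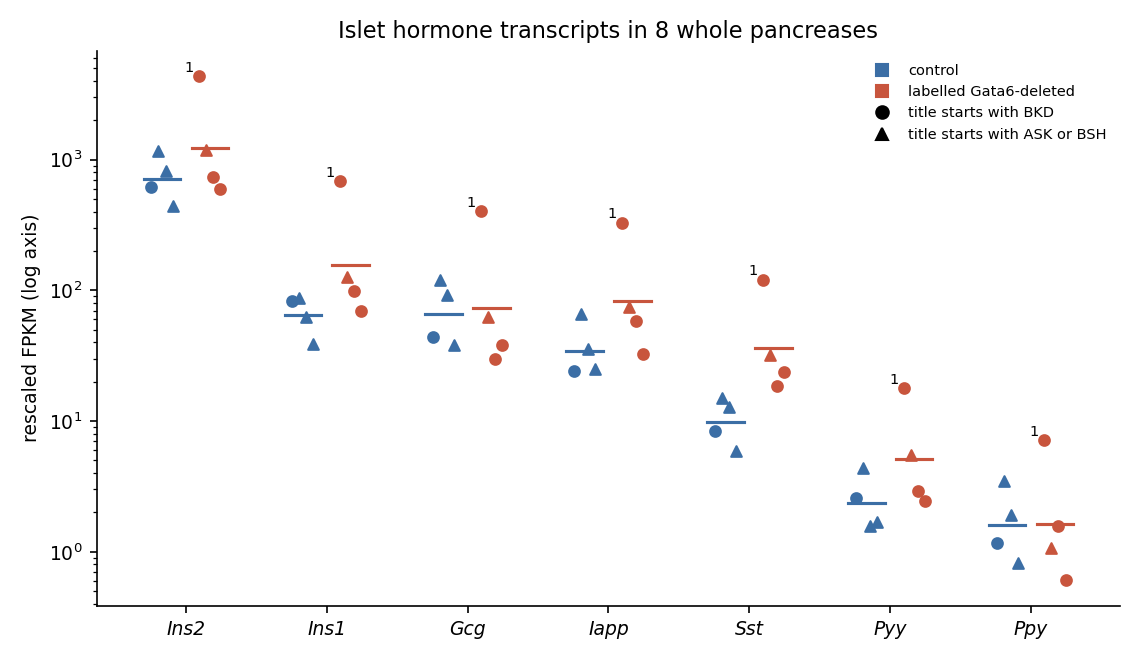
Level of each of the 7 islet hormone transcripts in rescaled FPKM on a log axis, 1 point per library, with controls in blue, labelled libraries in red, circles for BKD titles and triangles for ASK or BSH titles. Bars are means of the log2 values in a group. Labelled library 1, marked 1, is the highest point for every hormone, and Sst is the hormone whose red points all lie above its blue ones.

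No hormone passed the test of the labelled libraries against the controls. With limma on log2(rescaled FPKM + 1) over all genes, 0 of the 7 hormones had an adjusted p under 0.05, against 0.414% of all genes tested (0.22% higher and 0.194% lower), and 1 of 7, Sst, had an unadjusted p under 0.05, against 30.1% of all genes. All 7 log2 fold changes were above 0 with a median of 0.91, where 57.8% of all genes were above 0 with a median of 0.10. Without labelled library 1, 5 of the 7 were above 0, with a median of 0.39 against 0.06 over all genes. The p-values measure only the spread between these samples, 1 pancreas each as far as the labels say. In bulk tissue, fewer or more cells of a type and less or more RNA per cell cannot be told apart.

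Somatostatin was the one hormone whose groups did not overlap, all 4 labelled libraries being above all 4 controls. Sst (chr16:23889667-23890930, mm9) was at 8.36, 15.1, 12.8 and 5.86 in controls 1 to 4 and at 121, 32.1, 18.5 and 23.6 in labelled libraries 1 to 4. The mean was 10.5 ± 4.19 (SD, n = 4) in the controls and 48.7 ± 48.3 (SD, n = 4) in the labelled libraries. The log2 fold change was 1.77 (SE 0.57, limma adjusted p = 0.115), so that it did not pass. Of all genes tested, 10.9% were likewise higher without overlap. Without labelled library 1 the log2 fold change was 1.20 (adjusted p = 0.185). Within the BKD titles it was 2.05, within the other titles it was 1.52, and with the title as a covariate it was 1.79 (adjusted p = 0.302). The Sst values rested on an implied 30.0 to 63.0 fragments in the controls, against 104 to 2017 in the labelled libraries. Genes of other cell types were higher in value in the same libraries. The sum of 10 macrophage genes was 109 to 168 over the controls and 222 to 880 over the labelled libraries, and that of 10 fibroblast and stellate cell genes 212 to 289 and 340 to 1267. Their part in the level of Sst was not tested.

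The beta cell hormones were far higher in labelled library 1 and close to the controls in the other labelled libraries. Ins2 (chr7:149864561-149885415), which carries most of the insulin message in the mouse, was at 616, 1169, 813 and 445 in the controls and at 4367, 1180, 731 and 595 in the labelled libraries. Labelled libraries 3 and 4 thus lay within the control range (log2 fold change 0.78, SE 0.65, limma adjusted p = 0.422). Ins1 (chr19:52338813-52339946), the second insulin gene of rodents, was at 82.4, 88.0, 62.8 and 39.0 in the controls and at 689, 127, 99.1 and 69.1 in the labelled libraries. Labelled libraries 1 to 3 exceeded every control and labelled library 4 did not (log2 fold change 1.26, SE 0.68, limma adjusted p = 0.231). Ins1 and Ins2 are close paralogs, and how fragments that match both were assigned is not given in the sources used here, so the split between them is uncertain.

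Iapp (chr6:142246943-142252481), which encodes the peptide co-secreted with insulin, followed the insulins. It was at 24.1, 65.4, 35.9 and 25.1 in the controls and at 330, 74.9, 58.6 and 32.4 in the labelled libraries. Labelled libraries 1 and 2 were above all controls, and labelled libraries 3 and 4 were inside the control range (log2 fold change 1.24, SE 0.67, limma adjusted p = 0.232). Its entry overlaps that of Slco1a5, so shared fragments are possible. Without labelled library 1 the log2 fold changes were 0.55 for Ins1, 0.16 for Ins2 and 0.58 for Iapp. Within the BKD titles they were 1.02, 1.01 and 1.79 in that order, while the ASK and BSH libraries alone gave 1.06, 0.65 and 0.93.

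Glucagon was high in labelled library 1 and at or below the control mean in the others. Gcg (chr2:62312587-62321707) was at 44.2, 120, 91.9 and 38.3 in the controls and at 405, 62.4, 30.0 and 38.4 in the labelled libraries. The mean of the controls was 73.7 ± 39.3 (SD, n = 4) and that of labelled libraries 2 to 4 was 43.6 ± 16.8 (SD, n = 3). The log2 fold change over all 8 libraries was 0.16 (SE 0.80, limma adjusted p = 0.897), and it turned to -0.65 (adjusted p = 0.425) without labelled library 1. It was 0.81 among the BKD titles, which hold that library, and -0.27 among the ASK and BSH titles.

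The pancreatic polypeptide family, Ppy and Pyy, lay side by side on chromosome 11 and was the least abundant. Ppy (chr11:101961244-101962633) was at 1.18, 3.46, 1.93 and 0.821 in the controls and at 7.13, 1.08, 1.57 and 0.603 in the labelled libraries (log2 fold change 0.11, SE 0.51, limma adjusted p = 0.894, and -0.39 without labelled library 1). Only labelled library 1 exceeded the controls. Pyy (chr11:101967990-101969146) was at 2.60, 4.41, 1.58 and 1.70 in the controls and at 18.0, 5.52, 2.92 and 2.47 in the labelled libraries (log2 fold change 0.91, SE 0.52, limma adjusted p = 0.255, and 0.39 without labelled library 1). Labelled libraries 1 and 2 were above every control. Within the BKD titles the log2 fold changes were 0.57 for Ppy and 0.82 for Pyy, while the ASK and BSH libraries alone gave -0.47 and 0.96. Ppy rested on an implied 1.37 to 47.8 fragments per library and Pyy on 2.80 to 125, so that small differences in these genes were not detectable at this depth.

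Labelled library 1 stood apart in every hormone. Its level was 11.5 times the control mean for Sst, 10.1 times for Ins1, 8.78 times for Iapp, 6.98 times for Pyy, 5.74 times for Ins2, 5.49 times for Gcg and 3.86 times for Ppy. The same library had the least digestive enzyme message. The sum of 23 acinar enzyme genes was 548578 to 776244 in the controls, against 9562, 327361, 84876 and 417289 in labelled libraries 1 to 4. The insulin sum, Ins1 plus Ins2, was 699, 1257, 876 and 484 in the controls, against 5055, 1307, 831 and 664 in labelled libraries 1 to 4. Labelled library 3, with the second lowest enzyme sum, thus had an insulin sum inside the control range. The part of the enzyme share in the hormone levels was not tested.

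**Figure D2:**
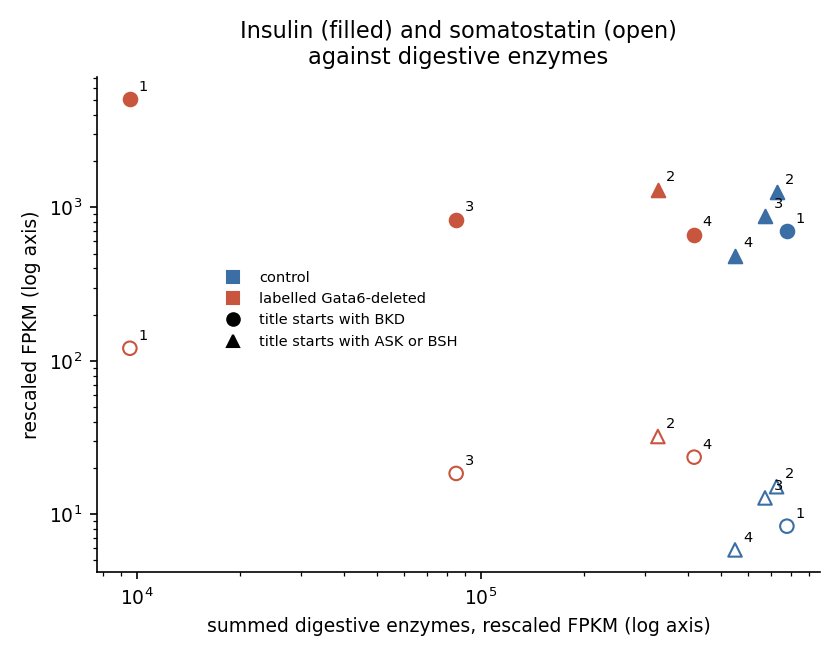
Summed insulin (Ins1 plus Ins2, filled symbols) and Sst (open symbols) against the sum of 23 digestive enzyme genes, all in rescaled FPKM on log axes, 1 pair of points per library, numbered within its group. Labelled library 1 sits alone at the upper left, with an enzyme sum of 9562 and an insulin sum of 5055. The open red points all lie above the open blue ones.

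The level of each hormone moved with the scaling of the libraries. When the libraries were scaled to an equal sum outside the enzymes, the median of all genes moved to 0.83 and the log2 fold changes were 2.69 for Sst, 2.22 for Ins1, 2.20 for Iapp, 1.74 for Ins2, 1.71 for Pyy, 1.12 for Gcg and 0.83 for Ppy. Against the median of all genes, Sst was then 1st in size among the 7 and Ppy last, as with the deposited scale, where Sst was at 1.77 and Ppy at 0.11. When the libraries were scaled to 6 endocrine granule genes, the values were 1.21 for Sst, 0.67 for Ins1, 0.66 for Iapp, 0.42 for Pyy, 0.19 for Ins2, -0.31 for Ppy and -0.42 for Gcg, with adjusted p from 0.692 to 0.980 and a median of all genes at -0.27. One of the 6, Ptprn2, was at 16.8 to 22.2 in the controls and at 3.91, 11.1, 4.30 and 14.3 in labelled libraries 1 to 4. Like the enzymes it was lowest in labelled libraries 1 and 3, so this is not a scale of endocrine tissue alone. Sst had the highest value and Gcg and Ppy the lowest on each of these 3 scales, while Gcg and Ppy changed sign on the last. A factor per library shifts all 7 by nearly the same amount, so this order was all but fixed and lends no support. Quantile normalization can reorder genes. It gave 2.19 for Ins2, 2.13 for Ins1, 1.97 for Sst, 1.75 for Iapp, 0.86 for Gcg, 0.84 for Pyy and -0.070 for Ppy.

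**Figure D3:**
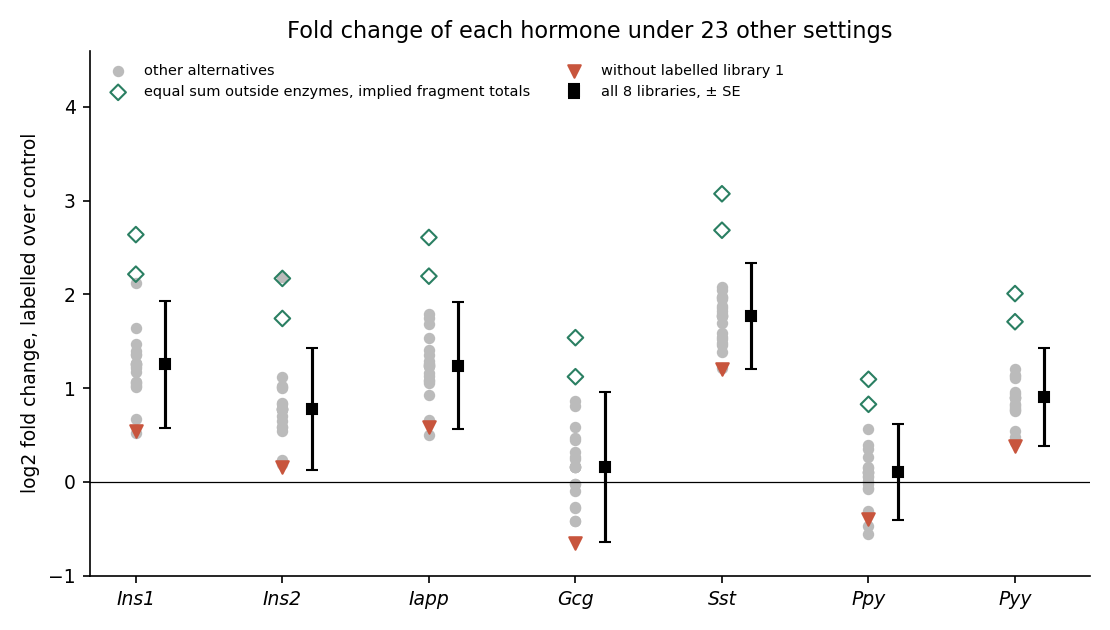
Log2 fold change of labelled libraries over controls for each hormone, with all 8 libraries (black squares, ± SE) and under the other settings, among them the fit without labelled library 1 (red triangles) and the 2 scalings that move all genes up (green diamonds). Sst stays above 1 throughout, between 1.20 and 3.07, while Gcg and Ppy fall on both sides of 0.

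Ratios between hormones within a library do not depend on the scaling, nor on how much islet tissue the piece of pancreas held as long as the islet cell types keep their proportions. Of 9 ratios, Sst to insulin and Sst to Gcg separated the groups without overlap. The other 7, namely Ins1 to Ins2, Gcg, Iapp, Ppy and Pyy to insulin, Ppy to Gcg and Pyy to Ppy, overlapped. With 4 libraries against 4 the exact two-sided permutation test over 70 splits cannot go below p = 0.0286, and after Benjamini-Hochberg adjustment over the 9 ratios no ratio passed the threshold of 0.05. A ratio at that floor could pass only if most of the 9 were at it.

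The ratio of somatostatin to insulin varied little among the controls and was higher in every labelled library. Sst as a percent of Ins1 plus Ins2 was 1.20, 1.20, 1.46 and 1.21 in controls 1 to 4 and 2.39, 2.46, 2.22 and 3.55 in labelled libraries 1 to 4. The means were 1.27% ± 0.128 (SD, n = 4) and 2.65% ± 0.604 (SD, n = 4). The ratio was 2.07 times higher in the labelled libraries (log2 difference 1.05, SE 0.17, exact permutation p = 0.0286, adjusted p = 0.110). On the log2 scale the SD over the controls was 0.139. Counting error from the implied fragments alone was 0.185 to 0.267 (1 SD) per control, so the SE may be too small. When every tested gene above 0 in all 8 libraries was set against the insulin sum in the same way, 0.26% of 11143 genes were higher without overlap and 2.34% were lower. The insulin sum was 5055 in labelled library 1, against 484 to 1257 in the controls. A gene not raised in that library could therefore hardly be higher without overlap. These shares do not show how rare the Sst difference is. Labelled library 1, which stood apart in level, had a ratio inside the range of the other labelled libraries. The log2 difference was 1.15 within the BKD titles, 0.93 within the others and 1.09 without labelled library 1.

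Somatostatin was higher in value relative to glucagon too. Sst as a percent of Gcg was 18.9, 12.6, 13.9 and 15.3 in the controls and 29.8, 51.4, 61.5 and 61.3 in the labelled libraries. Here labelled library 1 was the lowest of its group and still above every control. The ratio was 3.27 times higher (log2 difference 1.71, SE 0.28, exact permutation p = 0.0286, adjusted p = 0.110). Among all genes set against Gcg, 0.404% of 11144 were higher without overlap. Gcg too was far higher in labelled library 1 than in any control, so this share has the same limit as the one for insulin. Within the BKD titles the difference was 1.35, within the others 1.89, and without labelled library 1 it was 1.95. Seen from the other side, 5132 of 11144 genes (46.1%) were lower relative to Sst without overlap, and 1 gene (0.00897%) was higher. Sst itself was above every control in each labelled library, so a gene with no change tends to fall lower against it.

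A second test gave no call for either Sst ratio. With limma on the log2 ratio of every gene to insulin, the adjusted p of Sst was 0.654, and on the ratio to Gcg it was 1. The standard errors of that fit, 0.86 and 1.10, draw on the spread of all genes and are well above the 0.17 and 0.28 found between the libraries for Sst itself. Of these, the 0.17 rests on controls that lay closer together than counting error alone would put them. Without labelled library 1 the adjusted p was 0.583 for the ratio to insulin and 0.0978 for the ratio to Gcg. Limma called 15 genes higher and 103 lower relative to insulin, or 0.135% and 0.924%, and relative to Gcg 10 higher and 12 lower, or 0.0897% and 0.108%.

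**Figure D4:**
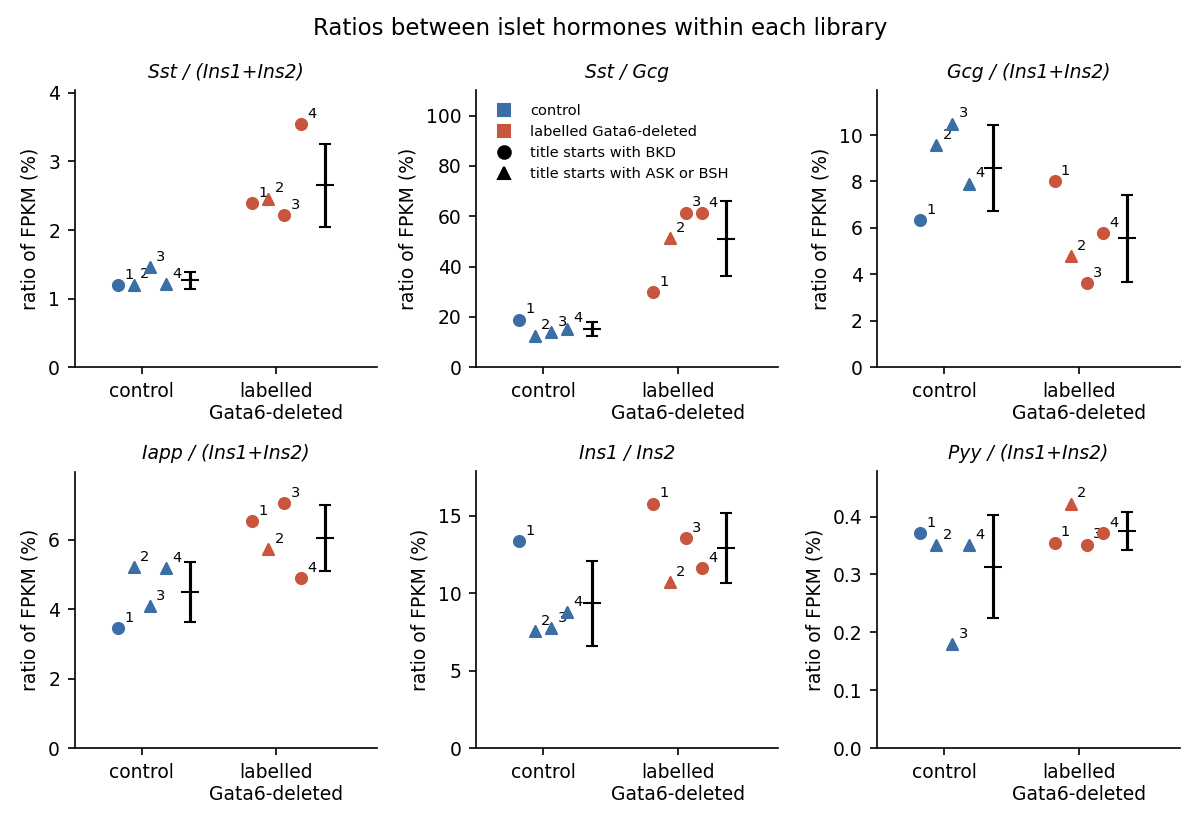
The 2 Sst ratios and 4 others in percent, 1 point per library, numbered within its group, with circles for BKD titles and triangles for ASK or BSH titles. Bars are mean ± SD over 4 libraries. Sst, at 1.27% against 2.65% of insulin and 15.2% against 51.0% of Gcg, separates the groups, and the other ratios shown overlap.

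The remaining ratios overlapped between the groups. Gcg as a percent of insulin was 6.33, 9.58, 10.5 and 7.91 in the controls and 8.01, 4.77, 3.61 and 5.79 in the labelled libraries (log2 difference -0.66, SE 0.29, exact permutation p = 0.0857, adjusted p = 0.110). Labelled libraries 2 to 4 lay below every control, and labelled library 1 lay inside the control range. Within the titles the difference was -0.20 for BKD and -0.96 for ASK and BSH. Iapp as a percent of insulin was 3.45, 5.21, 4.10 and 5.18 in the controls and 6.53, 5.73, 7.05 and 4.88 in the labelled libraries (log2 difference 0.44, SE 0.18, exact permutation p = 0.0857, adjusted p = 0.110). Here labelled library 4 alone fell inside the control range, and the difference was 0.82 among BKD and 0.26 among ASK and BSH titles.

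The balance of the insulin genes went with the title as well as with the label. Ins1 as a percent of Ins2 was 13.4, 7.53, 7.73 and 8.77 in the controls and 15.8, 10.7, 13.5 and 11.6 in the labelled libraries (log2 difference 0.49, SE 0.23, exact permutation p = 0.0857, adjusted p = 0.110). Control 1, the BKD control, lay inside the range of the labelled libraries, and the difference was 0.018 within the BKD titles and 0.42 within the others.

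Ppy and Pyy gave ratios that rested on few fragments. Ppy as a percent of insulin was 0.208% ± 0.0509 (SD, n = 4) in the controls and 0.126% ± 0.0493 (SD, n = 4) in the labelled libraries (log2 difference -0.78, exact permutation p = 0.0857, adjusted p = 0.110). Pyy as a percent of insulin was 0.313% ± 0.0893 and 0.375% ± 0.0326 (SD, n = 4 each), a log2 difference of 0.31 (exact permutation p = 0.171, adjusted p = 0.193). The ratio of Ppy to Gcg differed by -0.12 on the log2 scale (exact permutation p = 0.829, adjusted p = 0.829) and that of Pyy to Ppy by 1.09 (exact permutation p = 0.0857, adjusted p = 0.110). The differences of Ppy to insulin, Pyy to insulin, Ppy to Gcg and Pyy to Ppy were -0.33, -0.050, -0.13 and 0.28 within the BKD titles and -1.40, 0.59, -0.45 and 1.99 within the others. Counting error alone could move a single library's Ppy to insulin ratio by up to 1.23 on the log2 scale (1 SD), against at most 0.27 for Sst to insulin.

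Over all 21 pairs of the 7 hormones, taken without a test, 5 pairs did not overlap between the groups. Of the 6 pairs with Sst, 3 did not overlap, with Sst higher relative to Ins2, Gcg and Ppy in the labelled libraries. Relative to each of these denominators in turn, 0.287%, 0.404% and 0.727% of all genes were higher without overlap. Each denominator was highest in labelled library 1, which keeps genes not raised there out of these shares. The other pairs were Iapp over Gcg, at 0.390 to 0.654 in the controls, against 0.816 to 1.95 in the labelled libraries, and Iapp over Ppy, at 18.6 to 30.5 and 37.4 to 69.7. The Sst pairs with Ins1, Iapp and Pyy overlapped. In shares of the 7-hormone sum, Sst was 1.03% to 1.25% in the controls, against 1.96% to 3.09% in the labelled libraries, and Gcg 5.68% to 9.01% and 3.19% to 6.82%.

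Across the 8 libraries the hormone levels varied together, in large part through labelled library 1. Pearson's r of log2 levels, given as a description over libraries that share their scaling and islet content, was 0.97 for Ins2 and Iapp and 0.66 for Sst and Ppy, the highest and lowest of the pairs. Over the 7 libraries without labelled library 1 it was 0.87 for Ins2 and Iapp, 0.71 for Ins2 and Gcg, 0.76 for Gcg and Ppy, 0.10 for Gcg and Sst and -0.0042 for Sst and Ppy. Sst was thus close to the beta cell hormones (0.65 with Ins2, 0.76 with Ins1 and 0.74 with Iapp) and to Pyy (0.67). Sst was not close to Gcg or Ppy.

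Among the genes whose pattern over the 8 libraries was most like that of a hormone, several are endocrine granule or convertase genes. Nearest to Ins2 were Pcsk2 (r = 0.99, and 0.96 without labelled library 1), the prohormone convertase, Csnk2a1 (0.99 and 0.96) and Scg2 (0.98 and 0.91), a granin. Nearest to Ins1 were Scg3 (0.98 and 0.91), Papss2 (0.98 and 0.87) and Grb14 (0.97 and 0.96). Nearest to Iapp were Inmt (0.98 and 0.93), Scg2 (0.98 and 0.92) and Csnk2a1 (0.98 and 0.91). Nearest to Gcg were Sytl4 (0.97 and 0.89), a granule docking protein, Chga (0.95 and 0.86), the granule protein chromogranin A, and Zfp946 (0.94 and 0.79). Nearest to Sst were Sertad2 (0.98 and 0.95), Spc25 (0.97 and 0.93) and Foxk2 (0.96 and 0.97). Nearest to Ppy were Tmem106b, Dennd1b and Rab23 (0.96, 0.95 and 0.94), and nearest to Pyy were Nfat5, Scg2 and Grb14 (0.98, 0.97 and 0.96).

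The genes that cut, amidate and store the hormones showed no call. Of 9 processing and amidation genes tested, 7 were higher and 2 lower in value, 0 passed in limma and 2 had an unadjusted p under 0.05. Of all genes, 57.8% were higher in value, 0.414% passed and 30.1% had an unadjusted p under 0.05, the background for this list and those that follow. The median log2 fold change was 0.36 against 0.10 over all genes. Cpe, which trims the cut peptides, had -0.56 (adjusted p = 0.251), and Pam, which amidates peptides such as amylin and pancreatic polypeptide, had 0.71 (adjusted p = 0.103). Of 6 granule genes tested of 12, 5 were higher and 1 lower in value, 0 passed, 1 had an unadjusted p under 0.05 (30.1% of all genes) and the median was 0.52. Chga had 0.34 (adjusted p = 0.755), and Ptprn2, a membrane protein of dense granules, had -1.30 (adjusted p = 0.106). Without labelled library 1, 3 granule genes met the minimum, with a median of -0.33.

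Markers of the separate islet cell types did not follow their hormones in 1 direction. Of 5 beta cell genes tested of 14, 3 were higher and 2 lower in value and 0 passed, with 2 at an unadjusted limma p under 0.05 (30.1% of all genes). The most abundant, Ero1lb, an oxidase of the endoplasmic reticulum, and G6pc2, a glucose phosphatase subunit of beta cells, had log2 fold changes of -1.95 and 0.94 (adjusted p = 0.114 and 0.250). Of 4 alpha cell genes tested of 10, 2 were higher and 2 lower in value, 0 passed and 3 had an unadjusted limma p under 0.05 (30.1% of all genes), with Slc38a5, an amino acid transporter, at -3.18 (adjusted p = 0.114) and Ttr, transthyretin, at -0.80 (adjusted p = 0.326). Slc38a5 was at 63.2 to 103 in the controls and at 0.436, 32.2, 2.09 and 31.5 in labelled libraries 1 to 4, lowest where the enzyme sum was lowest. Of 5 islet transcription factors tested of 18, 1 was higher and 4 lower in value, 0 passed and 2 had an unadjusted limma p under 0.05 (30.1% of all genes), with Foxa2 at -0.68 (adjusted p = 0.122) and Hnf4a at -0.14 (adjusted p = 0.833).

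In the list for delta, PP and epsilon cells, 4 of 7 genes were tested, 2 were higher and 2 lower in value, and 1, Rbp4, passed as higher, where 0.22% of all genes did. Rbp4, the retinol carrier of plasma, which is made in delta cells and also in fat, was at 1.46 to 2.11 in the controls and at 8.08, 8.84, 4.50 and 6.69 in the labelled libraries (log2 fold change 1.46, SE 0.19, limma adjusted p = 0.0267). Fat cell genes were higher in the same libraries. The sum of 10 adipocyte genes was 78.3 to 229 in the controls, against 390 to 514 in the labelled libraries, 10 of 10 were higher in value (57.8% of all genes), and 2 passed as higher (0.22% of all genes). These were Cidec (1.95, adjusted p = 0.0362) and Plin4 (1.84, adjusted p = 0.0422), both lipid droplet proteins. The Rbp4 call was lost without labelled library 1 (adjusted p = 0.0713), without any 1 of the controls (0.0632 to 0.113) and with the title as a covariate (0.144), at log2 fold changes of 1.39 to 1.53. It was also lost without a minimum level and under each of the 5 scalings (adjusted p = 0.0548 to 0.601). Cidec and Plin4 did not pass without labelled library 1 (adjusted p = 0.105 and 0.103), with the title as a covariate (0.185 and 0.155) or under any of the 5 scalings (0.0548 to 0.598). The part of fat in the Rbp4 result was not tested. Hhex, a transcription factor of delta cells, was at 1.57 to 2.35 in the controls and at 5.97, 2.33, 3.53 and 1.70 in the labelled libraries (log2 fold change 0.42, adjusted p = 0.307), and its groups overlapped.

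Somatostatin is also made in the stomach, gut and nerves, so markers of those tissues were read beside it. The sum of 10 intestinal epithelium genes was 0.102 to 0.573 over the controls and 0.415 to 1.36 over the labelled libraries. Of the 10, 5 were at 0 everywhere. The sum of 8 neuron and Schwann cell genes was 0.588 to 1.40 and 0.739 to 2.998 in that order, highest in labelled library 1. Of 12 gastric epithelium genes, a list added after the data were seen, 3 (Gkn1, Gkn2 and Atp4b) were at 0 in all 8 libraries. Gif, which encodes gastric intrinsic factor, was at 0, 0, 0 and 0.0535 in the controls and at 0.4997, 2.16, 0.393 and 0.977 in the labelled libraries, all 4 above every control. Muc6, a mucin of gastric glands, was at 0 to 0.0463 in the controls and at 0.832, 6.40, 0.212 and 0.0214 in the labelled libraries. Pgc, the gastric protease precursor, was at 114 in labelled library 2 and at no more than 2.48 elsewhere, and Tff2, a trefoil peptide of mucus, was at 3264 to 4259 in the controls and at 38.1, 1627, 272 and 2289 in the labelled libraries. The sum of the 12, mostly Tff2, was 3266 to 4262 over the controls and 42.9 to 2291 over the labelled libraries. Like the enzymes, Tff2 was lowest in labelled libraries 1 and 3, whereas Gif was higher in every labelled library. This sum is therefore not a scale of stomach RNA. Of the 2 tested with all 8 libraries, Pgc and Tff2, 0 passed and 1, Tff2, had an unadjusted limma p under 0.05 (30.1% of all genes). The log2 difference of Sst to insulin without labelled library 2, the one with the most Pgc, Muc6 and Gif, was 1.08, and that of Sst to Gcg was 1.69. This leaves Gif in the other labelled libraries, and the part of stomach RNA in the Sst values was not tested.

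Other peptide genes of islet and gut had few members above the minimum. Of 18, 3 were tested, 2 were higher and 1 lower in value, and 0 passed, with 3 at an unadjusted limma p under 0.05, where 30.1% of all genes had one and 0.414% passed. Gal, the neuropeptide galanin, was at 81.4, 242, 197 and 249 in the controls and at 0.198, 44.1, 2.74 and 33.1 in the labelled libraries (log2 fold change -4.29, SE 1.12, limma adjusted p = 0.103). Like the enzymes it was lowest in labelled libraries 1 and 3. Penk, which encodes the enkephalins, was at 3.73 to 7.02 in the controls and at 8.82 to 23.2 in the labelled libraries (log2 fold change 1.10, limma adjusted p = 0.104). Ghrl, the precursor of ghrelin, named here after its values were seen, was at 0.629, 0.269, 0.588 and 0 in the controls and at 8.20, 16.6, 2.85 and 0 in the labelled libraries (log2 fold change 1.89, limma adjusted p = 0.152). Its highest value was in labelled library 2, the library with Pgc, and the share of stomach RNA in it was not tested.

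Of the receptors for these hormones, 5 of 18 were tested, 1 was higher and 4 lower in value, and 0 passed, with 1 (Sstr2) at an unadjusted limma p under 0.05 (30.1% of all genes). They were the insulin receptor Insr (log2 fold change -0.12), the GLP-1 receptor Glp1r (-0.20), the somatostatin receptor Sstr2 (-0.77, limma adjusted p = 0.103) and the accessory proteins of the amylin receptor, Ramp1 (-0.27) and Ramp2 (0.42). Sstr2 was at 2.38, 1.78, 1.33 and 2.17 in the controls and at 0.265, 0.838, 0.795 and 0.950 in the labelled libraries, so that its groups did not overlap, where 7.61% of all genes were lower in that way. Insr, Glp1r and Sstr2 are named beyond the rule for such lists, to account for each tested receptor.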

How the data were processed

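Whole pancreas poly(A) RNA (integrity numbers 7.1 to 8.8) was amplified over 8 PCR cycles in the TruSeq protocol and read on a Genome Analyzer IIx, according to the labels. Per the submitters' processing notes, which state no roles, the tools were CASAVA 1.8, Bowtie, Cufflinks 2.0.1 and TopHat2 2.0.4, and the builds mm9 and NCBIM37. Not given in the sources used here are the annotation release, the strand and the scaling. The authors deposited 1 table of gene FPKM with interval bounds per library, per the file headers. The deposited FPKM summed to between 2.34e+10 and 1.86e+11 and were divided by 100000. The files hold no counts, and fragments were implied from the interval widths, taking a half-width as 2 SD. They describe depth only, and cover counting error, not variation between animals. Gene positions are on mm9, and promoters, taken by symbol (6 of 7 matched), on GRCm38.p6.

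Genes with a mean of at least 1 were tested, leaving out 39 without an estimate in some library, with limma 3.58.1 (R 4.3.3) on log2(rescaled FPKM + 1) with an intensity trend, two-sided. P-values were Benjamini-Hochberg adjusted over 11832 genes, with a threshold of 0.05. Fold changes on this scale understate the change of low genes. Hormone ratios had no pseudocount. The fit was tested on simulated data.

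The members, lists and tests were chosen with earlier results of these data known. Named genes were the hormones, Gata6, the 4 passing members of each list that changed most (or, with no passing member, the 2 with the highest mean), and the 3 genes of highest correlation with each hormone, without predicted genes and small RNAs. Alternatives were 2 pseudocounts, other minimums, 5 scalings, no trend, sample weights, title as covariate or split by title, and leaving out libraries. The gastric list, the pairs, the backgrounds of the ratios and limma on ratios were added after the data were seen.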

Additional observations from a re-analysis of the deposited data

Results flagged for a closer look

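In 9 of 32 groups of 4 unlogged values examined, the highest or lowest value stood far from the next. The gap exceeded Dixon's critical value of 0.829 as a share of the group's range. Chance gives about 1 in 20 only if the values are normally distributed. Levels were tested on the log2 scale, which shrinks a gap at the high end, and the gaps were not examined there. The flags may therefore come from the scale. Labelled library 1 was the highest of its group in all 7 hormones and passed that limit in 6, Pyy being the exception. The gap took up 0.907 of the range for Ins1, 0.845 for Ins2, 0.857 for Iapp, 0.914 for Gcg, 0.867 for Sst and 0.852 for Ppy. These 6 are 1 library seen through 6 genes, and the same library had the lowest enzyme sum, 9562.

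In ratios that library did not pass the limit, though it stood off in 2 of them. Its Gcg to insulin was 8.01%, against 3.61% to 5.79% in the other labelled libraries. Its Sst to Gcg was 29.8%, against 51.4% to 61.5%. Control 3 was the highest control in Sst to insulin, at 1.46% against 1.20% to 1.21% in the other controls (gap 0.952 of the range), and the lowest in Pyy to insulin, at 0.180% against 0.351% to 0.372% (gap 0.888). Labelled library 3 was the highest of its group in Ppy to Gcg, at 5.22% against 1.57% to 1.76% (gap 0.947). The Ppy and Pyy values in these libraries rested on an implied 15.9 and 2.80 fragments.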

How the results depend on the processing

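No hormone level passed the threshold with all 8 libraries or in any of the 23 other settings run for levels. Of 308 alternative values, 284 kept their direction and side of the threshold, 18 changed sign and 6 ratios within 1 kind of title moved by more than the spread between libraries. The Sst level and both Sst ratios kept their direction in each setting run. No ratio passed in any setting with a test, but with so few libraries this was nearly fixed in advance. A ratio at the smallest possible p passes only if most of the 9 ratios reach it. Without labelled libraries 1 and 3 that smallest permutation p was 0.0667, above the threshold. The Gcg level changed sign with median-ratio scaling (-0.027), scaling to granule genes (-0.42), sample weights (-0.27), without labelled libraries 1 and 3 (-0.42) and in the ASK and BSH libraries alone (-0.27). It was -0.03 without control 1, -0.09 without control 4 and -0.65 without labelled library 1. The Ppy level changed sign with median-ratio scaling (-0.027), quantile normalization (-0.070), scaling to granule genes (-0.31), without labelled libraries 1 and 3 (-0.56) and in the ASK and BSH libraries alone (-0.47). It was -0.08 without control 4 and -0.39 without labelled library 1. Pyy to insulin changed sign among the BKD titles (-0.050), and Ppy to Gcg without labelled library 2 (0.01) and without labelled library 4 (0.053). Among the BKD titles the differences were 0.018 for Ins1 to Ins2, 0.82 for Iapp to insulin, -0.20 for Gcg to insulin and 0.28 for Pyy to Ppy. Among the ASK and BSH titles they were -1.40 for Ppy to insulin and 1.99 for Pyy to Ppy. The cause of these changes was not tested, and a split by title leaves a lone library on one side, whose spread is taken from the rest. Leaving out each library in turn gave -0.65 to 0.59 for Gcg, -0.39 to 0.39 for Ppy, 1.20 to 2.08 for Sst, -0.52 to 0.053 for Ppy to Gcg, 0.90 to 1.12 for Sst to insulin and 1.60 to 1.95 for Sst to Gcg. Ppy and Pyy were below a minimum mean of 5 and had no value there. The number of genes called over the whole table was 49, and it ranged from 4 among the BKD titles to 3780 with sample weights. It was 2577 without labelled library 4, 108 without labelled library 2 and 9 to 27 without 1 of the other libraries. Scaling to implied fragment totals gave 6 and the title as a covariate gave 5. No paired analysis was run, because the labels used here do not match any control to a labelled library. Depth limits Ppy and Pyy, with as few as 1.37 and 2.80 implied fragments.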

Other observations

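Ucn3, a peptide of mature beta cells that lay below the expression minimum, was at 0.248, 0.784, 0.461 and 0.268 in the controls and at 2.61, 0.695, 0.115 and 0.251 in the labelled libraries. Labelled library 3, with insulin inside the control range, had the lowest Ucn3. Mafa and Nkx6-1, transcription factors of beta cells, were also below the minimum. Mafa was at 0 to 0.489 in the controls and at 1.74, 0.0985, 0.116 and 0 in the labelled libraries, and Nkx6-1 was at 0 to 0.149 and at 1.38, 0.318, 0.147 and 0.124. The somatostatin receptor Sstr3 was at 0.0456 to 0.258 in the controls and at 0.603, 0.204, 0.0615 and 0.0259 in the labelled libraries, and Sstr5 was listed at 0 in all 8. For each of these genes but Sstr5, labelled library 1 had the highest value. These genes were picked for this paragraph after their values were seen and have no test.

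An interaction of title and label, fitted with limma over all genes, gave adjusted p from 0.962 to 0.997 for the 7 hormones, with SE from 1.33 to 2.15 on the log2 scale, so that differences of that size between the titles were not detectable.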
